A study of Gossypium barbadense and Gossypium hirsutum with 8 samples.

Results

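The genes described here had little or no transcript in cotton fibers up to 15 days post anthesis (DPA) and abundant at 20 DPA in both cultivated tetraploid cottons. They are the genes listed at 1 RPKM or less in each of the 6 libraries of 5, 10 and 15 DPA and at 10 RPKM or more in both libraries of 20 DPA, with the species less than 4-fold apart at 20 DPA. RPKM counts reads by gene length in kilobases and by library size. Of 59006 listed genes, 53 met these conditions, and they are called late-only genes below. They were chosen by the RPKM values of all 8 libraries, so their rise at 20 DPA and their level in either species are given as a description, and no test of either is given.

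Total RNA of fibers was sequenced from Gossypium barbadense, grown for its extra-long staple, and Gossypium hirsutum, upland cotton, at 5, 10, 15 and 20 DPA, with 1 library for each species and stage. No treatment, cultivar or genetic change is named in the labels, and the number of plants in a library is not stated. The last stage is called 20 DPA in the stage labels, whereas its sample titles carry the number 25. No later stage was analysed here, so "late-only" says nothing of what followed 20 DPA.

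A cotton fiber is a single cell of the seed coat. It first elongates with a thin, extensible primary wall, and later turns to laying down a secondary wall of almost pure cellulose, made by cellulose synthase complexes whose subunits differ from those of the primary wall. This change of program falls in the later part of the period sampled here. Tetraploid cottons carry an A and a D subgenome, so most genes exist as an A copy and a D copy, called homoeologs. An identifier such as Gh_A08G0457 names the subgenome, the chromosome and the gene's number along it, and Sca identifiers lie on unplaced scaffolds. The identifiers were not paired with gene names or sequences in the sources used here (0 of 59006 matched the reference table), so no function, secondary wall gene or fiber marker could be assigned to any of them.

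The libraries differed in summed RPKM, from 138198 at 5 DPA in G. hirsutum up to 503585 at 10 DPA in G. barbadense. By an estimate searched only near equal worth, 1 read was worth nearly the same RPKM in each. Its worth ran from 0.864 (G. hirsutum, 20 DPA) to 1.03 (G. hirsutum, 5 DPA) of that in G. barbadense at 5 DPA. The share of listed genes at exactly 0 reached 57.8% at 20 DPA in G. barbadense fibers and 55.0% in the G. hirsutum library of that age, against 20.4% to 40.3% in the earlier libraries. More genes were thus detected in each earlier library than in either library of 20 DPA.

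The late-only genes were a small share of what was expressed at 20 DPA. In all, 2407 genes stood at 10 RPKM or more in both species at 20 DPA and less than 4-fold apart, and the 53 late-only genes were 2.20% of these. Most of the 2407 genes, 2168 (90.1%), had exceeded 10 RPKM in at least 1 earlier library, and 186 had peaked between 1 and 10 RPKM. The same conditions turned to the other stages found 1 gene listed high at 5 DPA alone, 0 at 10 DPA alone and 0 at 15 DPA alone. These were out of 1486, 3339 and 2261 genes at 10 RPKM or more in both species and less than 4-fold apart. After scaling by median-of-ratios factors the numbers were 0, 0, 0 and 65 at 5, 10, 15 and 20 DPA. Genes confined to a single stage in both species were thus nearly all genes of the last stage under either scaling. Genes of 10 or 15 DPA had to be low both before and after, whereas no stage after 20 DPA was analysed.

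**Figure D1:**
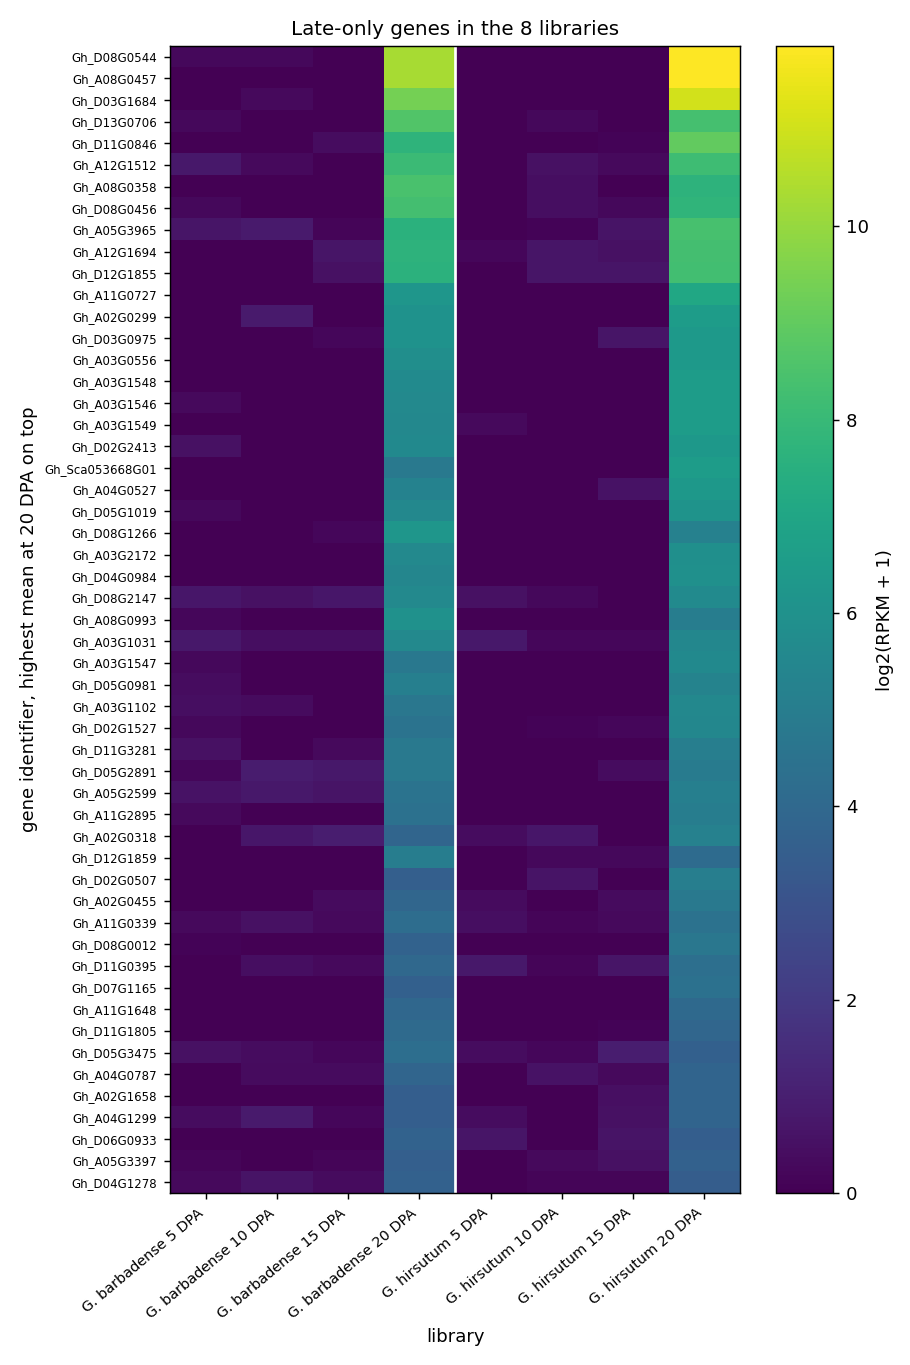
Levels of the 53 late-only genes (rows, highest mean at 20 DPA on top) in the 8 libraries (columns, by species and stage), in log2(RPKM + 1). The 20 DPA columns run from 10.78 to 1288 RPKM in G. barbadense fibers and from 10.33 to 3732 RPKM in G. hirsutum fibers, and no earlier value exceeds 0.96 RPKM.

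At 20 DPA the late-only genes covered more than 2 orders of magnitude. In G. barbadense the lowest, median and highest were 10.78, 37.6 and 1288 RPKM, and in G. hirsutum they were 10.33, 45.5 and 3732 RPKM. The other 2354 genes of the same 20 DPA floor and fold limit had medians of 31.1 RPKM in G. barbadense fibers, against 29.5 RPKM in G. hirsutum fibers. Together the 53 genes made up 2.07% of all RPKM at 20 DPA in G. barbadense fibers and 4.68% in G. hirsutum fibers, against 0.00315% or less and 0.00332% or less in the earlier libraries of each species. In RNA of whole samples, more cells expressing a gene cannot be told apart from more RNA per cell.

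The levels were split into a small high group and a large moderate one by a cut at 150 RPKM, placed in a gap of these same values. It was not the only gap: in G. hirsutum fibers another lay inside the high group, from 511 to 2136 RPKM. In the high group, 11 genes stood at 150 RPKM or more in both species, from 189.6 to 1288 RPKM in G. barbadense fibers and from 205.8 to 3732 RPKM in G. hirsutum fibers. The other 42 genes reached at most 74.7 RPKM in G. barbadense fibers, against 133 RPKM in G. hirsutum fibers, with medians of 26.2 and 34.7 RPKM. The 11 high genes made up 80.1% of the late-only RPKM in G. barbadense fibers and 86.4% in G. hirsutum. In G. barbadense 4 late-only genes were among the 100 most abundant genes at 20 DPA, and in G. hirsutum 6 were.

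The most abundant were Gh_D08G0544 and Gh_A08G0457, a D and an A gene of chromosome 8. Gh_D08G0544 was listed at 0.21, 0.21, 0 and 1288 RPKM at 5, 10, 15 and 20 DPA in G. barbadense fibers, against 0, 0, 0 and 3732 RPKM in G. hirsutum fibers. It ranked as number 23 of all genes in G. barbadense at 20 DPA and as number 10 in G. hirsutum. Gh_A08G0457 was listed at 0 in all 6 earlier libraries and stood at 1279 RPKM in G. barbadense fibers, against 3688 RPKM in G. hirsutum fibers at 20 DPA. Both genes were therefore almost 3-fold higher in G. hirsutum (2.90-fold and 2.88-fold). The other gene above 1000 RPKM in a library was Gh_D03G1684, which was listed at 0.22 RPKM in G. barbadense fibers at 10 DPA and at 0 in the other early libraries, and stood at 663 RPKM in G. barbadense fibers, against 2136 RPKM in G. hirsutum fibers at 20 DPA. These 3 genes alone held 48.2% of the late-only RPKM in G. barbadense fibers and 68.4% in G. hirsutum.

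Before 20 DPA most values were exactly 0. Of the 318 early values (53 genes in 6 libraries), 203 were 0 (63.8%), 115 were above 0 with a median of 0.32 RPKM, and 32 reached 0.5 RPKM. Only 9 genes were listed at 0 in all 6 early libraries, 17 were at 0 in 5 of them, and 3 were above 0 in every one. The genes above 0 numbered 25, 17 and 20 at 5, 10 and 15 DPA in G. barbadense fibers, against 11, 19 and 23 in G. hirsutum. Over all listed genes the share at exactly 0 was 22.1%, 20.4% and 26.6% in the same G. barbadense libraries, against 39.4%, 32.4% and 40.3% in those of G. hirsutum. No order of the stages or species is read from these counts, since a value of 0 and a trace of very few reads cannot be distinguished at this depth.

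Early values above 0 rest on far fewer reads than the 20 DPA values of the same genes. Some stood well above the smallest one of their gene, such as 0.84 against 0.10 RPKM in Gh_A05G3965. The smallest early value above 0 of a gene is at least 1 read, where whole reads were counted. By the estimate above, 1 read was worth less at 20 DPA. Together these set a lower limit on the reads behind the 20 DPA level of a gene. For the 44 genes with an early value above 0, this limit had a median of 154 reads in G. barbadense and 175 reads in G. hirsutum at 20 DPA, and the lowest were 20 and 19 reads. The limits cover counting error only. For the 9 genes at 0 throughout, no such limit could be read.

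The genes with the highest early values were Gh_A02G0318 and Gh_D05G3475. Gh_A02G0318 was listed at 0, 0.64, 0.96 and 13.5 RPKM at 5, 10, 15 and 20 DPA in G. barbadense fibers, against 0.32, 0.63, 0 and 35.9 RPKM in G. hirsutum fibers. Gh_D05G3475 was listed at 0.47, 0.32, 0.16 and 18.6 RPKM in G. barbadense fibers, against 0.32, 0.16, 0.93 and 11.6 RPKM in G. hirsutum fibers. Even in Gh_D05G3475, where the step was smallest, the lower 20 DPA value was 12.4 times the highest early one.

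At each edge of the conditions, genes with close values stood on either side. The lowest 20 DPA value inside was that of Gh_D04G1278, at 12.02 RPKM in G. barbadense fibers, against 10.33 RPKM in G. hirsutum fibers, and the nearest gene outside was Gh_A07G1070, at 9.99 and 20.9 RPKM. Nearest above the early ceiling was Gh_A08G0421, at 1.04 RPKM in G. hirsutum fibers at 15 DPA, and 340 RPKM in G. barbadense fibers, against 450 RPKM in G. hirsutum fibers at 20 DPA. Widest apart inside was Gh_Sca053668G01, at 26.5 RPKM in G. barbadense fibers, against 94.6 RPKM in G. hirsutum fibers (3.56-fold), and nearest outside was Gh_A12G1049, at 12.6 and 56.4 RPKM (4.49-fold).

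Most late-only genes stood higher in G. hirsutum at 20 DPA. Of the 53, 12 were higher in G. barbadense (22.6%), against 41 higher in G. hirsutum (77.4%), whereas of the other 2354 genes of like floor and fold limit 56.9% were higher in G. barbadense, against 43.1% in G. hirsutum. At 2-fold or more, 2 late-only genes were higher in G. barbadense, against 11 in G. hirsutum. The other genes passed 2-fold towards G. barbadense in 8.45% of cases, against 5.73% towards G. hirsutum. The median difference, G. barbadense minus G. hirsutum on the log2(RPKM + 1) scale, was -0.53 over the late-only genes (quartiles -0.90 and -0.08) and 0.12 over the others (quartiles -0.29 and 0.54). With median-of-ratios factors the medians were -0.54 and 0.11, and after quantile normalization -0.57 and 0.07. Each species had 1 library at 20 DPA, so a difference between species cannot be told apart from a difference between these libraries. Reads of both species were also scored on the same Gh_ gene list. Whether they fit it equally well was not tested. The fold limit of the selection also bounds every one of these differences.

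**Figure D2:**
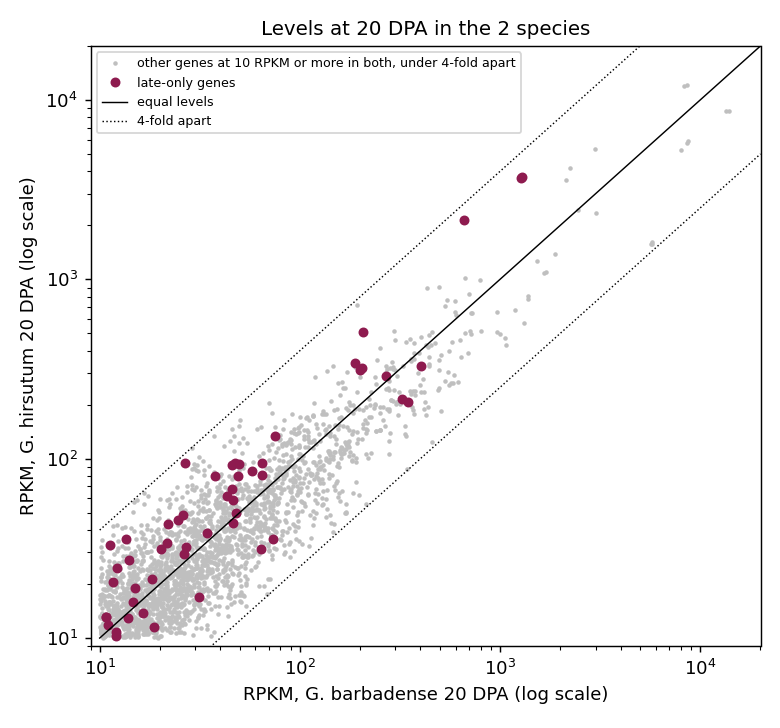
RPKM at 20 DPA in G. barbadense (x axis) and G. hirsutum (y axis), both on log scales, for the 53 late-only genes and the other 2354 genes at 10 RPKM or more in both species and less than 4-fold apart. Above the line of equal levels lie 41 late-only genes, those higher in G. hirsutum, and below it lie 12.

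The lean towards G. hirsutum is set here beside earlier expression. Among the 186 genes whose highest early value lay over 1 and up to 10 RPKM, 48.4% were higher in G. barbadense at 20 DPA, with a median log2 difference of -0.03. Among the 1453 genes over 10 and up to 100 RPKM the share was 55.8% and the median 0.09, and among the 715 genes over 100 RPKM they were 61.3% and 0.21. The late-only genes, at 22.6% and -0.53, had the lowest share and median of the 4 classes. This is a description only, since the selection used both the early values and the 20 DPA values. The highest early value was taken over both species, and summed RPKM was larger in G. barbadense at each early stage. After quantile normalization the 4 shares were 22.6%, 47.8%, 55.4% and 56.4% in the same order, with the classes kept as cut on the deposited values. The classes over 10 RPKM were then nearly level. These classes were set after the values were seen.

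**Figure D3:**
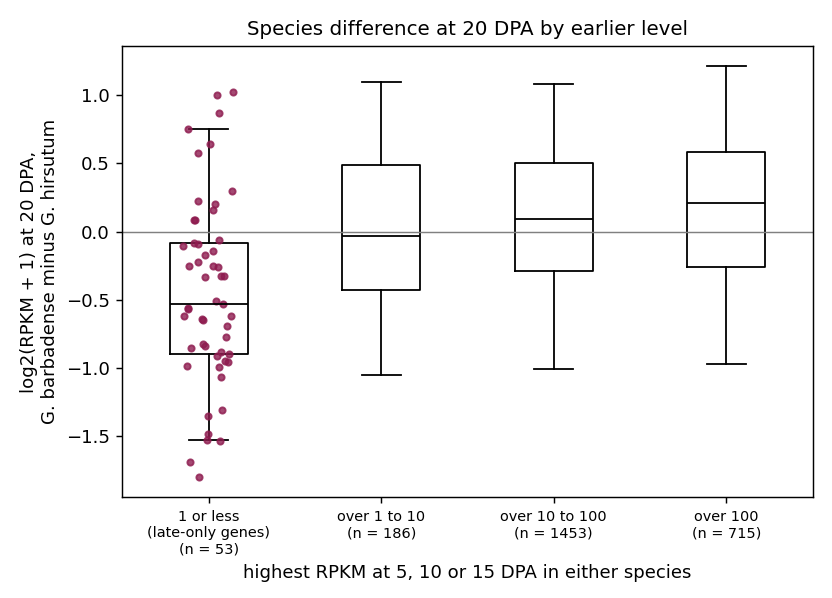
Difference between the species at 20 DPA, as log2(RPKM + 1) in G. barbadense minus G. hirsutum, by the highest RPKM at 5, 10 or 15 DPA in either species. Boxes give the quartiles and the median, whiskers the range from 5% to 95% of genes, and points the 53 late-only genes, whose median of -0.53 is the lowest of the 4 classes.

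The lean was present in both level groups: 3 of the 11 high genes and 9 of the 42 others were higher in G. barbadense. Of the late-only genes on the A subgenome, 4 were higher in G. barbadense, against 23 in G. hirsutum, and on the D subgenome 8 and 17. Furthest towards G. hirsutum were Gh_Sca053668G01, the only late-only gene on a scaffold, and Gh_D03G1684 (log2 differences -1.80 and -1.69).

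Furthest towards G. barbadense were Gh_D08G1266 and Gh_A08G0993, again a D and an A gene of chromosome 8. Gh_D08G1266 was listed at 0, 0, 0.17 and 73.4 RPKM at 5, 10, 15 and 20 DPA in G. barbadense fibers, against 0, 0, 0 and 35.55 RPKM in G. hirsutum fibers. Gh_A08G0993 was listed at 0.17, 0, 0 and 64.0 RPKM in G. barbadense fibers, against 0, 0, 0 and 31.5 RPKM in G. hirsutum fibers. These were the only late-only genes at least 2-fold higher in G. barbadense (2.06-fold and 2.03-fold).

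Among the abundant genes, Gh_A12G1512 and Gh_D13G0706 were closest to equal. Gh_A12G1512 was listed at 0.71, 0.24, 0 and 269.7 RPKM from 5 to 20 DPA in G. barbadense fibers, against 0, 0.47, 0.23 and 287 RPKM in G. hirsutum fibers. Gh_D13G0706 was listed at 0.21, 0, 0 and 402 RPKM in G. barbadense fibers, against 0, 0.21, 0 and 327 RPKM in G. hirsutum fibers. Over all late-only genes, 24 (45.3%) lay within 1.5-fold between the species, against 62.7% of the other genes.

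By position, which was not used to choose them, the late-only genes were divided almost evenly between the subgenomes. The A subgenome held 27, the D subgenome 25 and the scaffolds 1. Of the 52 placed genes 51.9% were A genes, against 47.3% of the other genes of like 20 DPA level and 48.4% of all listed genes. They lay on 17 of the 26 chromosomes. Chromosome A03 held 8, D08 held 5, and A02, A11, D05 and D11 held 4 each. A03 held 15.1% of the late-only genes, against 3.14% of the other genes of like 20 DPA level. Chromosomes 1, 9 and 10 held 0 in either subgenome, although 70 to 91 of the other genes lay on each of these 6 chromosomes.

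**Figure D4:**
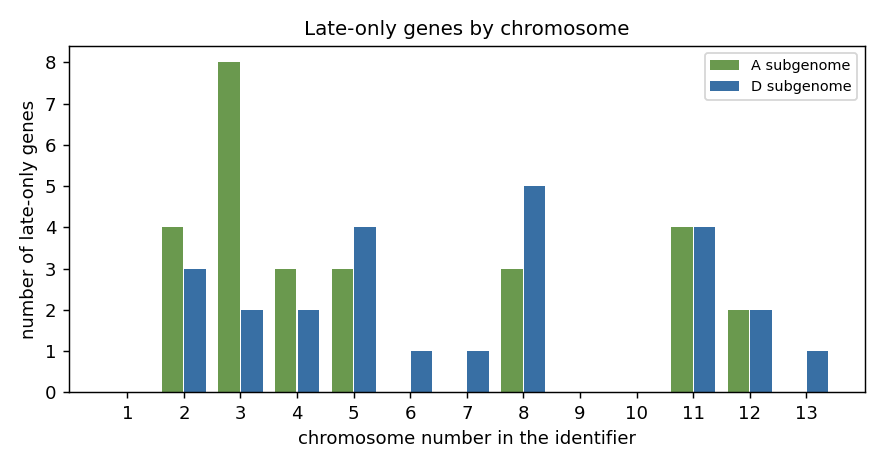
Number of late-only genes (y axis) on each chromosome number (x axis), for the A subgenome (left bars) and the D subgenome (right bars). A03 holds 8 genes, 4 of them neighbours, and chromosome 11 holds 4 genes in each subgenome.

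Of the 8 genes on A03, 4 carried consecutive numbers. Gh_A03G1546 stood at 47.3 RPKM in G. barbadense fibers, against 94.7 RPKM in G. hirsutum fibers at 20 DPA, Gh_A03G1547 at 25.97 and 48.65 RPKM, Gh_A03G1548 at 49.5 and 92.9 RPKM, and Gh_A03G1549 at 45.7 and 92.2 RPKM. All 4 were higher in G. hirsutum by nearly the same factor (1.87-fold to 2.02-fold), and each was above 0 in at most 1 early library, at 0.25 RPKM or less. Of the 15 listed genes within 8 numbers on either side, 10 were at 0 in both species at 20 DPA. The highest of these neighbours, Gh_A03G1557, stood at 30.6 RPKM in G. barbadense fibers, against 45.8 RPKM in G. hirsutum fibers at 20 DPA and was also expressed early. The levels of 3 of them were close to each other, and Gh_A03G1547 was lower in both species. How reads fitting several genes were counted is not given in the sources used here, so the 4 values are uncertain as separate measurements if the genes are near-identical copies, which was not tested.

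**Figure D5:**
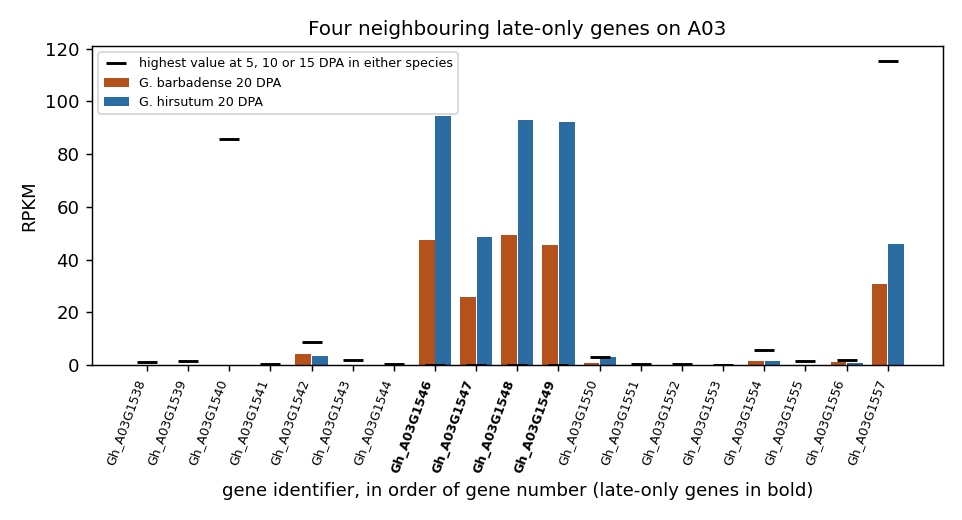
RPKM at 20 DPA (bars, G. barbadense left and G. hirsutum right of each pair) and the highest value at 5, 10 or 15 DPA in either species (dashes) for 4 neighbouring late-only genes on A03 and the listed genes within 8 numbers of them, in order of gene number. The 4 genes have bars of 25.97 to 94.7 RPKM with dashes at 0.25 RPKM or less, while Gh_A03G1540 and Gh_A03G1557 were expressed early.

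This was the only run: 4 of the 52 placed late-only genes (7.69%) had another within 2 gene numbers, against 19.8% of the other genes of like 20 DPA level. The other genes were more numerous on each chromosome, so that a neighbour among them was closer at hand.

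Several late-only genes came as an A and a D gene of the same chromosome number with like levels. In 3 such pairs, levels at 20 DPA lay within 10% of each other in both species, out of 81 possible pairs of an A and a D gene on chromosomes of the same number (3.70%). Among the 594 pairs on chromosomes of different number, 3 did (0.505%). Within 20%, the counts were 7 (8.64%) and 16 (2.69%).

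The pair with the highest level was Gh_A08G0457 and Gh_D08G0544, which were 0.735% apart in G. barbadense and 1.20% apart in G. hirsutum. Gh_A08G0358 and Gh_D08G0456 stood at 346 and 322 RPKM in G. barbadense fibers, against 206 and 216 RPKM in G. hirsutum fibers at 20 DPA. Gh_A12G1694 and Gh_D12G1855 stood at 204 and 199 RPKM in G. barbadense fibers, against 319 and 313 RPKM in G. hirsutum fibers. The first and the last of these pairs were higher in G. hirsutum and the middle one in G. barbadense. Both genes of each pair leaned the same way, which follows from choosing pairs with near-equal levels in both species. Reads shared between near-identical copies would give equal levels too, and this was not tested.

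Chromosome 11 had 4 late-only genes in each subgenome, and paired in order of gene number they were at most 1.33-fold apart in both species in 3 of 4 cases. Gh_A11G0339 and Gh_D11G0395 stood at 18.2 and 15.0 RPKM in G. barbadense fibers, against 21.4 and 19.1 RPKM in G. hirsutum fibers. Gh_A11G1648 and Gh_D11G1805 stood at 14.7 and 16.4 RPKM in G. barbadense fibers, against 15.85 and 13.9 RPKM in G. hirsutum fibers. Gh_A11G2895 and Gh_D11G3281 stood at 20.2 and 26.95 RPKM in G. barbadense fibers, against 31.5 and 32.3 RPKM in G. hirsutum fibers. The exception was Gh_A11G0727, at 74.7 RPKM in G. barbadense fibers, against 133 RPKM in G. hirsutum fibers, beside Gh_D11G0846, at 206 and 511 RPKM, so that the D gene was 2.76-fold and 3.84-fold higher. The 3 closer pairs all lay between 13.9 and 32.3 RPKM, a narrow range above the floor of 10 RPKM. Genes out of order could be as close, such as Gh_A11G1648 (14.7 and 15.85 RPKM) and Gh_D11G0395 (15.0 and 19.1 RPKM). Agreement by order is therefore not shown. Chromosome 12, with 2 late-only genes in each subgenome, gave a close pair and a distant one: by order, Gh_A12G1512 and Gh_D12G1855 were at most 1.35-fold apart, at 269.7 and 199 RPKM in G. barbadense fibers, against 287 and 313 RPKM in G. hirsutum fibers. The other, Gh_A12G1694, would by order stand beside Gh_D12G1859, which was 6.48-fold lower in G. barbadense and 18.9-fold lower in G. hirsutum. By level, Gh_A12G1694 was instead near-equal to Gh_D12G1855, as given above, so order and level give different pairs here. Whether any of these are homoeologs could not be checked without sequence.

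Some genes narrowly missed the conditions. A further 21 genes met all of them except for a single early library above 1 RPKM. The library was G. hirsutum at 15 DPA for 9 of them (1.04 to 3.90 RPKM), each of the 3 G. barbadense libraries and G. hirsutum at 10 DPA for 3 each, and G. hirsutum at 5 DPA for 0. Of the 21 genes, 4 were higher in G. barbadense at 20 DPA, against 17 in G. hirsutum. Over all 2354 other genes of like floor and fold limit, which include these 21, 43.1% were higher in G. hirsutum. Among the 9 were near-equal A and D pairs of chromosomes 8 and 11. Gh_A08G0421 and Gh_D08G0509 stood at 340 and 356 RPKM in G. barbadense fibers, against 450 and 467 RPKM in G. hirsutum fibers at 20 DPA, after 1.04 and 1.69 RPKM in G. hirsutum fibers at 15 DPA. Gh_A11G0519 and Gh_D11G0603 stood at 74.4 and 79.9 RPKM in G. barbadense fibers, against 62.9 and 68.4 RPKM in G. hirsutum fibers.

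Without the fold limit, 7 more genes met the conditions, 2 of them higher in G. barbadense, against 5 in G. hirsutum. Again pairs were among them. Gh_A05G2275 and Gh_D05G2536 stood at 263 and 249 RPKM in G. barbadense fibers, against 25.8 and 25.9 RPKM in G. hirsutum fibers, and Gh_A06G0785 and Gh_D06G0908 at 19.3 RPKM each in G. barbadense fibers and at 176 and 168 RPKM in G. hirsutum fibers. Genes at 10 RPKM or more at 20 DPA in a single species, and at 1 RPKM or less in the 7 other libraries, numbered 1 in G. barbadense and 15 in G. hirsutum, the G. hirsutum ones at 10.15 to 29.9 RPKM. With median-of-ratios factors the numbers were 1 and 15, and after quantile normalization 1 and 8. As deposited, the same count at 5 DPA gave 4 genes for G. barbadense, against 12 for G. hirsutum. At 10 DPA it gave 2 and 0, and at 15 DPA 0 and 5. An excess of G. hirsutum genes was thus not particular to 20 DPA. At 20 DPA the 1 gene of G. barbadense stood at 10.03 RPKM. The genes that met this single-species condition at 20 DPA were thus all of low or moderate level. They were not all absent from the other species. Of the 15 G. hirsutum genes, 5 were listed at 0 in G. barbadense at 20 DPA, and the others at 0.21 to 0.86 RPKM.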

How the data were processed

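The authors deposited RPKM values with 2 decimals for 59006 genes in 8 libraries. Cutadapt, Bowtie2 and edgeR appear in the submitters' processing notes, with no role. The sources used here do not give the genome build, the annotation or how reads that fit several genes were counted. The same identifiers, with the prefix Gh_, serve both species. A species difference in how well reads fit these genes was not tested and would enter every species comparison. Columns were matched to samples by title, and stages were taken from the stage labels.

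The late-only genes and the comparisons were chosen with earlier results of these data known. Each stage has 1 library per species and the selection used all 8, so only values, counts and medians are given, without tests. Species differences are on the log2(RPKM + 1) scale, and fold values are ratios of RPKM. The worth of 1 read was compared between libraries from the most frequent ratio of values between 0.2 and 1 RPKM. The search covered a limited range around equal worth, so a larger difference would not have been found. Median-of-ratios factors came from the 15529 genes above 0 in all libraries. Named genes were those with the highest level, the extreme and the most equal species ratios, the highest early values, near-equal A and D pairs, the run of neighbours, the scaffold gene, and those nearest each threshold. The genes of chromosomes 11 and 12, the third near-equal pair and the pairs outside the conditions were named after their values were seen. Lists of wall, tubulin, embryo and seed-coat genes could not be matched, since 0 identifiers occur in the reference table of 74561 G. barbadense genes. The selection, pairing and scaling steps were checked on a made-up table with known answers. Computations ran in Python 3.11.15 with numpy 2.4.6, pandas 2.3.3 and scipy 1.17.1.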

Additional observations from a re-analysis of the deposited data

How the results depend on the processing

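The number of late-only genes followed the thresholds: 35 at an early ceiling of 0.5 RPKM, 9 when every early value had to be 0, and 80 at a 20 DPA floor of 5 RPKM. With median-of-ratios factors and after quantile normalization 65 genes met the conditions, 51 and 49 of them among the 53. Leaving out each early library in turn gave 53 to 62 genes. The median species difference was negative in all 18 alternatives, from -0.77 to -0.29. All of them used the same libraries of 20 DPA and genes that overlap with the 53, so they are not independent of each other. The 9 genes at 0 throughout gave 0% higher in G. barbadense, 75% of placed genes on the A subgenome, 0% in a run, and took 0.495% of all RPKM in G. barbadense fibers and 1.43% in G. hirsutum. A limit of 2-fold between the species, which drops the 3 most abundant genes, gave 0.906% and 1.13%. Within 20%, 7 near-equal pairs were found in place of 3. With the run on A03 counted as 1 gene, chosen after seeing the data, the median difference was -0.42. No paired analysis was possible because the values come from no test: all 8 libraries, paired by stage or not, were used to choose the genes. Values under 1 RPKM rest on few reads, so genes at 0 and genes with a trace of very few reads are not distinguishable at this depth.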
